A study of Homo sapiens with 21 samples.

Results

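The genes described here are 30 genes of cholesterol and fatty acid synthesis, chosen by name from the 20111 gene symbols that each of the 2 expression tables lists. All 30 were found in both tables. They were taken as a group because they are known targets or regulators of the sterol regulatory element-binding proteins (SREBPs). The list was written with earlier results of these data known. By role they comprised 3 regulators, 8 enzymes from acetyl-CoA to farnesyl diphosphate, 9 enzymes from squalene to cholesterol, 1 sterol carrier, 4 genes of fatty acid synthesis and 5 of fatty acid modification.

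Polyadenylated RNA was sequenced from PC-9 cells, a human lung cancer line with an activating deletion in the epidermal growth factor receptor gene (genotype label EGFR delE746-A750, whose last residue number counts up from library to library in the labels). Every group came from this line, grown in RPMI with 10% FBS. EGFR-low and EGFR-high cells were populations obtained by 6 sequential sorts for the 5 to 10% of cells with the lowest or highest surface EGFR, and because surface EGFR shifted somewhat with time in culture the sorting was repeated. In the first experiment cells were left untreated and harvested 24 h after seeding, and parental cells stood beside the sorted populations. The second held EGFR-low and EGFR-high cells given DMSO or 1 µM SAHA (vorinostat, a histone deacetylase inhibitor) for 72 h. Each of the 7 groups had 3 replicates, 21 libraries in all, described by the study as independent experiments.

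Cells make cholesterol from acetyl-CoA through mevalonate, farnesyl diphosphate and squalene, and make fatty acids from acetyl-CoA through malonyl-CoA. When sterol in the endoplasmic reticulum is low, SREBP precursors travel to the Golgi, are cut, and their released parts switch on these genes. When sterol is abundant, INSIG proteins hold the precursors back. SREBP-2, made from SREBF2, acts mainly on sterol genes, and SREBP-1, made from SREBF1, mainly on fatty acid genes. Cultured cells take up cholesterol from serum, so the level of this pathway follows both medium and demand.

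The promoters were searched for the sites of SREBP and of a factor that works beside it. The sequences are RefSeq windows on GRCh38.p14, from 250 bases before to 50 bases after each start, and 26 of the 30 genes matched a window. Motifs were searched as letters on both strands. The sterol regulatory element, in the 10-letter form shown in capitals in SREBF2 below, was present in SREBF2 alone, against 0.0586% of all 27305 genes with a window, and the E-box type site ATCACGTGA in INSIG1 alone, against 0.308% of all genes. The CCAAT box, the site of NF-Y, a factor that works beside SREBP, was present in 20 of 26 genes (76.9%) against 39.7% of all genes. A match is only a run of letters, and the other genes may hold sites that differ from these. The shares of all genes here include genes not tested below, and a gene counted if any of its windows matched. Capitals mark the matched letters in the stretches below, which all lie before the RefSeq start. SREBF2 and INSIG1 are shown for the SREBP-type sites, and HMGCS1, HSD17B7, SCD and STARD4 as examples of the genes with a CCAAT box. PMVK, whose levels are described below, was not among the genes with a CCAAT box.
SREBF2 (chr22:41832961-41832990, plus strand): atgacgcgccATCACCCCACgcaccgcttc
INSIG1 (chr7:155297811-155297840, plus strand): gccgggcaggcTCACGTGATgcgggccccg
HMGCS1 (chr5:43313516-43313615, minus strand): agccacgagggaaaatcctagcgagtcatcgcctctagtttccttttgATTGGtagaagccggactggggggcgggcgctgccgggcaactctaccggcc
HSD17B7 (chr1:162790602-162790701, plus strand): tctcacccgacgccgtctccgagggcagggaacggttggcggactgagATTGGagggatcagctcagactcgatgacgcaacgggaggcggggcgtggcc
SCD (chr10:100346983-100347082, plus strand): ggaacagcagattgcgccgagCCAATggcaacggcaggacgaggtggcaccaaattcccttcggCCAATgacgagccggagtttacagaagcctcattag
STARD4 (chr5:111512645-111512744, minus strand): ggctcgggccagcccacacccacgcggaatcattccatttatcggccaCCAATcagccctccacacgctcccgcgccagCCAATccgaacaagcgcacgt

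All levels below are FPKM, fragments scaled by transcript length and by the size of the library. This scaling does not correct for differences in the make-up of the RNA between libraries. The tables of the 2 experiments were made separately, so levels are best compared within an experiment. EGFR RNA was at 16.1 to 60.6 FPKM in the 9 EGFR-low libraries and at 83.3 to 269 in the 9 EGFR-high libraries, with no overlap. The 7 epithelial markers were all present in every group, summing to 1420 to 3570 FPKM per library, whereas the 6 fibroblast markers summed to 1.02 to 5.88, the 4 leukocyte markers to 0.031 to 10.2 and the 2 endothelial markers found to 2.23 to 8.3. With DMSO 3 epithelial markers were called higher and 3 lower in EGFR-low cells, against 31.1% and 20.7% of all genes. With vorinostat 4 were called higher and 3 lower, against 36.2% and 22.8%. CD14, a leukocyte marker, was called higher in EGFR-low cells with DMSO and with vorinostat, by 0.82 and 1.54 on the log2 scale (limma adjusted p = 0.0231 and 0.000449), and its part in the results below was not tested. No leukocyte marker reached 1 FPKM in EGFR-high cells with vorinostat. CD14 thus passed the filter of 1 FPKM in 3 libraries without that group, and its calls are not independent of the filter. Some libraries of the second experiment stood apart. A set of 90 genes was at 3 FPKM or more in its 6 EGFR-low libraries and under 0.5 FPKM in its EGFR-high libraries other than DMSO replicate 3. Of these, 82 were also under 0.5 FPKM in all 9 untreated libraries, those of EGFR-low cells included. EGFR-high DMSO replicate 3 held the 90 genes at a median of 29.2% of their EGFR-low level. In the reverse direction, EGFR-low DMSO replicate 1 held 160 genes of EGFR-high cells at a median of 23.0% of their EGFR-high level. What lies behind these levels was not tested, and the EGFR-low against EGFR-high calls made with DMSO, the counts for the second experiment and the vorinostat effects are also given without these 2 libraries.

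Levels differed widely between the 30 genes. Across all 21 libraries HMGCS1, which makes the HMG-CoA from which mevalonate is formed, lay between 29.4 and 477 FPKM, and ACSL3, which activates long-chain fatty acids, between 84.6 and 325. SCD, the desaturase that makes oleate, lay between 41.4 and 521 FPKM. FDPS, which makes farnesyl diphosphate, reached 248 FPKM, and FDFT1, which makes squalene from it, 208. DHCR7, which carries out the last step to cholesterol in one branch of the pathway, reached 213 FPKM. MVK, the mevalonate kinase, lay between 3.33 and 17.99 FPKM and AACS, an acetoacetate-activating enzyme, between 6.34 and 17.5. The lowest levels of the sterol enzymes were in untreated parental cells, where TM7SF2, a sterol C14 reductase, was at 1.76, 5.78 and 1.22 FPKM and PMVK, the phosphomevalonate kinase, at 2.75, 4.55 and 1.66. STARD4, a carrier that moves sterol between membranes, was listed at 0 in 8 of the 9 untreated libraries and at 0.0088 FPKM in the ninth.

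A movement shared by most of these genes ran between replicates. In the second experiment 19 of the 30 genes were highest in replicate 1 in each of its 4 groups, against 3.46% of the 12236 genes tested. These were SREBF2 and INSIG1, 6 enzymes of the early pathway (ACAT2, HMGCS1, MVK, MVD, IDI1 and FDPS), all 9 enzymes from squalene to cholesterol, SCD and ACSL3. None of the 30 was highest in replicate 2, or in replicate 3, in all 4 groups.

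In EGFR-low cells given DMSO HMGCS1 was at 114, 37.3 and 29.4 FPKM in replicates 1, 2 and 3, and in EGFR-high cells given DMSO at 477, 76.5 and 70.2. With vorinostat it was at 108, 35.04 and 32.6 FPKM in EGFR-low cells and at 310.0, 126 and 48.3 in EGFR-high cells. Replicate 1 of EGFR-high DMSO thus stood 6.51-fold above the mean of the other replicates of its group. INSIG1, an INSIG protein that is itself induced by SREBP, was at 70.8, 29.3 and 18.8 FPKM in EGFR-low DMSO and at 67.9, 16.7 and 24.6 in EGFR-high DMSO. With vorinostat INSIG1 was at 77.3, 30.1 and 29.7 FPKM in EGFR-low cells and at 41.5, 25.6 and 8.59 in EGFR-high cells. SQLE, the squalene epoxidase, was at 81.5, 42.6 and 33.0 FPKM in EGFR-low DMSO and at 156, 46.4 and 47.2 in EGFR-high DMSO. With vorinostat SQLE was at 65.0, 36.9 and 40.0 FPKM in EGFR-low cells and at 107, 56.7 and 32.8 in EGFR-high cells. In every group the first replicate was the highest for all 3 genes.

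**Figure D1:**
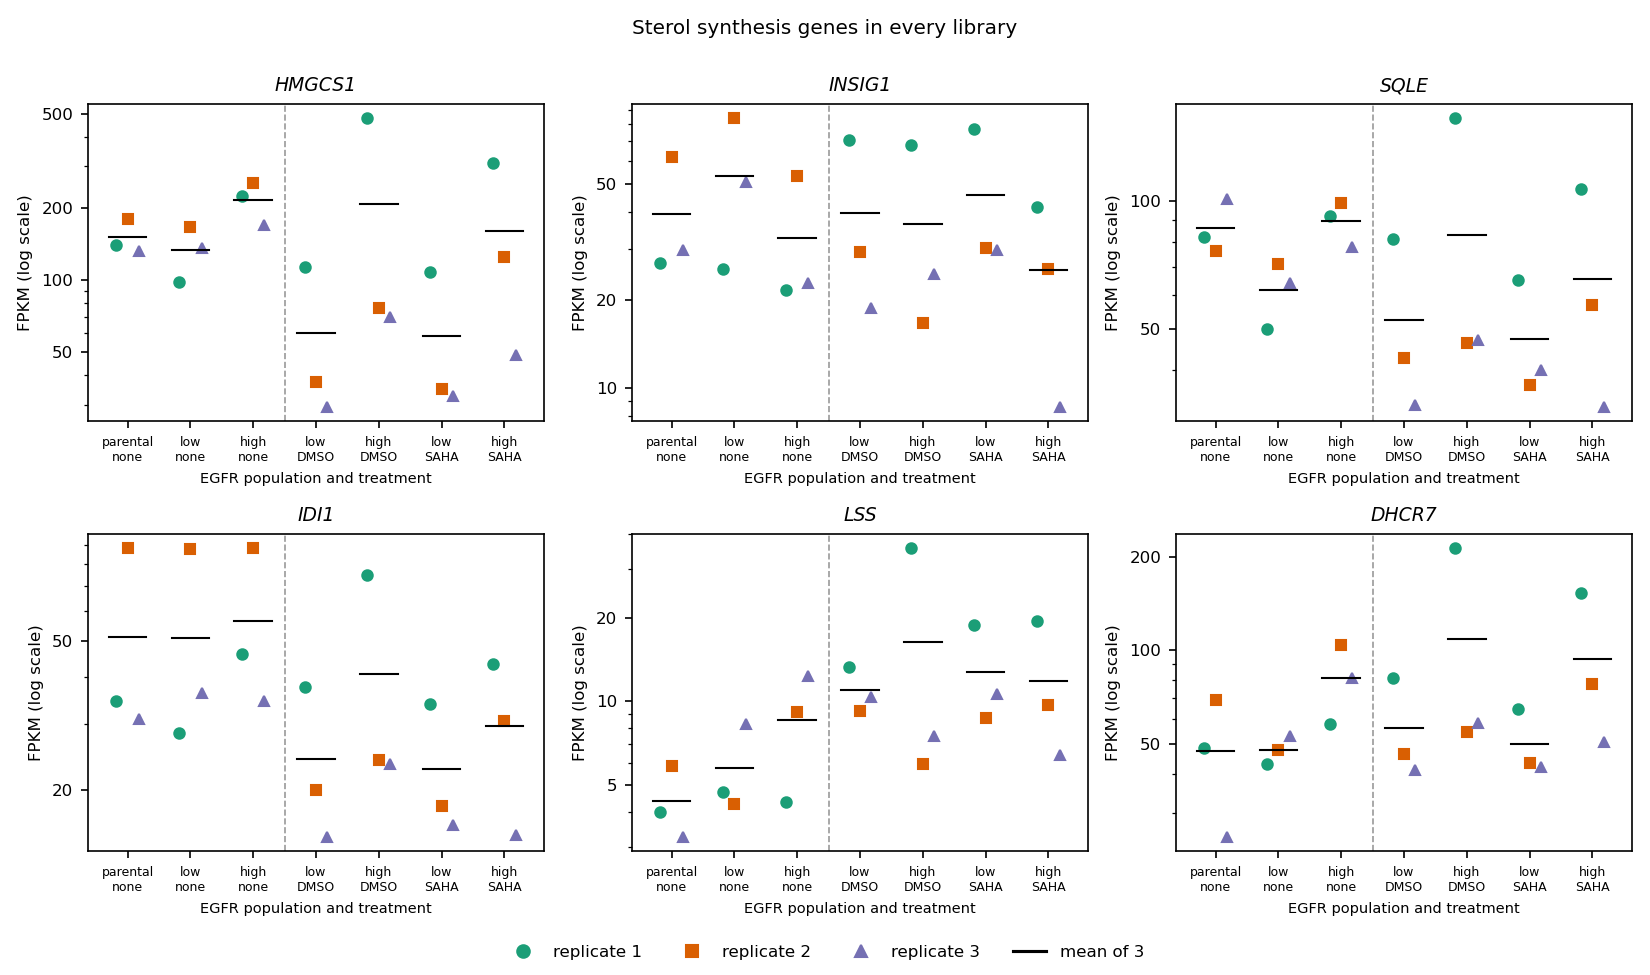
FPKM (log scale) of HMGCS1, INSIG1, SQLE, IDI1, LSS and DHCR7 in each of the 21 libraries, by EGFR population (parental, low, high) and treatment (none, DMSO, SAHA), with a marker per replicate number and a bar at the mean of 3 replicates. The dashed line separates the experiments. Right of it, replicate 1 is the highest in every group for all genes shown, as HMGCS1 at 477 FPKM in EGFR-high DMSO against 76.5 and 70.2 in the other replicates.

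The sterol enzymes moved together and the fatty acid genes less. On the log2(FPKM + 1) scale, the median difference of replicate 1 from the mean of the other replicates over the 17 sterol enzymes was 0.82 in EGFR-low DMSO, 0.60 in EGFR-low vorinostat, 1.61 in EGFR-high DMSO and 0.81 in EGFR-high vorinostat. Over the 9 fatty acid genes it was 0.29, 0.15, 0.80 and 0.38 in the same order, and over all genes tested it lay between -0.15 and -0.02. Replicate 1 was above the other replicates' mean for 15 to 16 of the 17 sterol enzymes in each group. PMVK was slightly lower in replicate 1 in all 4 groups, with differences of -0.36, -0.05, -0.10 and -0.08. Mitochondrial transcripts made up 22.2%, 18.6% and 24.2% of the summed FPKM in replicate 1 of EGFR-low vorinostat, EGFR-high DMSO and EGFR-high vorinostat, and 7.8% in replicate 1 of EGFR-low DMSO, against 7.27 to 16.7% in the other 8 libraries. The part of that share in the pattern was not tested.

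The untreated experiment held a pattern of the same kind, smaller and in another replicate. Of the 29 genes tested there, 13 were highest in replicate 2 in all 3 groups (INSIG1, ACAT2, HMGCS1, IDI1, FDPS, FDFT1, CYP51A1, NSDHL, HSD17B7, EBP, ACSS2, SCD and FADS1), against 17.6% of all 11305 genes tested. INSIG1 was at 26.8, 61.6 and 29.6 FPKM in the parental replicates 1, 2 and 3, at 25.5, 83.9 and 50.6 in EGFR-low cells and at 21.55, 53.35 and 22.9 in EGFR-high cells. The median difference of replicate 2 from the others over the 17 sterol enzymes was 0.91 in parental, 0.27 in EGFR-low and 0.62 in EGFR-high cells, and over the 9 fatty acid genes -0.03, -0.21 and -0.16. Over all genes tested it was -0.002, -0.26 and -0.07 in the same order. Replicate 2 was above the others for 16, 11 and 17 of the 17 sterol enzymes. HSD17B7, a 3-ketosteroid reductase of the pathway, was 3.64-fold, 2.31-fold and 3.16-fold above the mean of the other replicates in these groups.

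**Figure D2:**
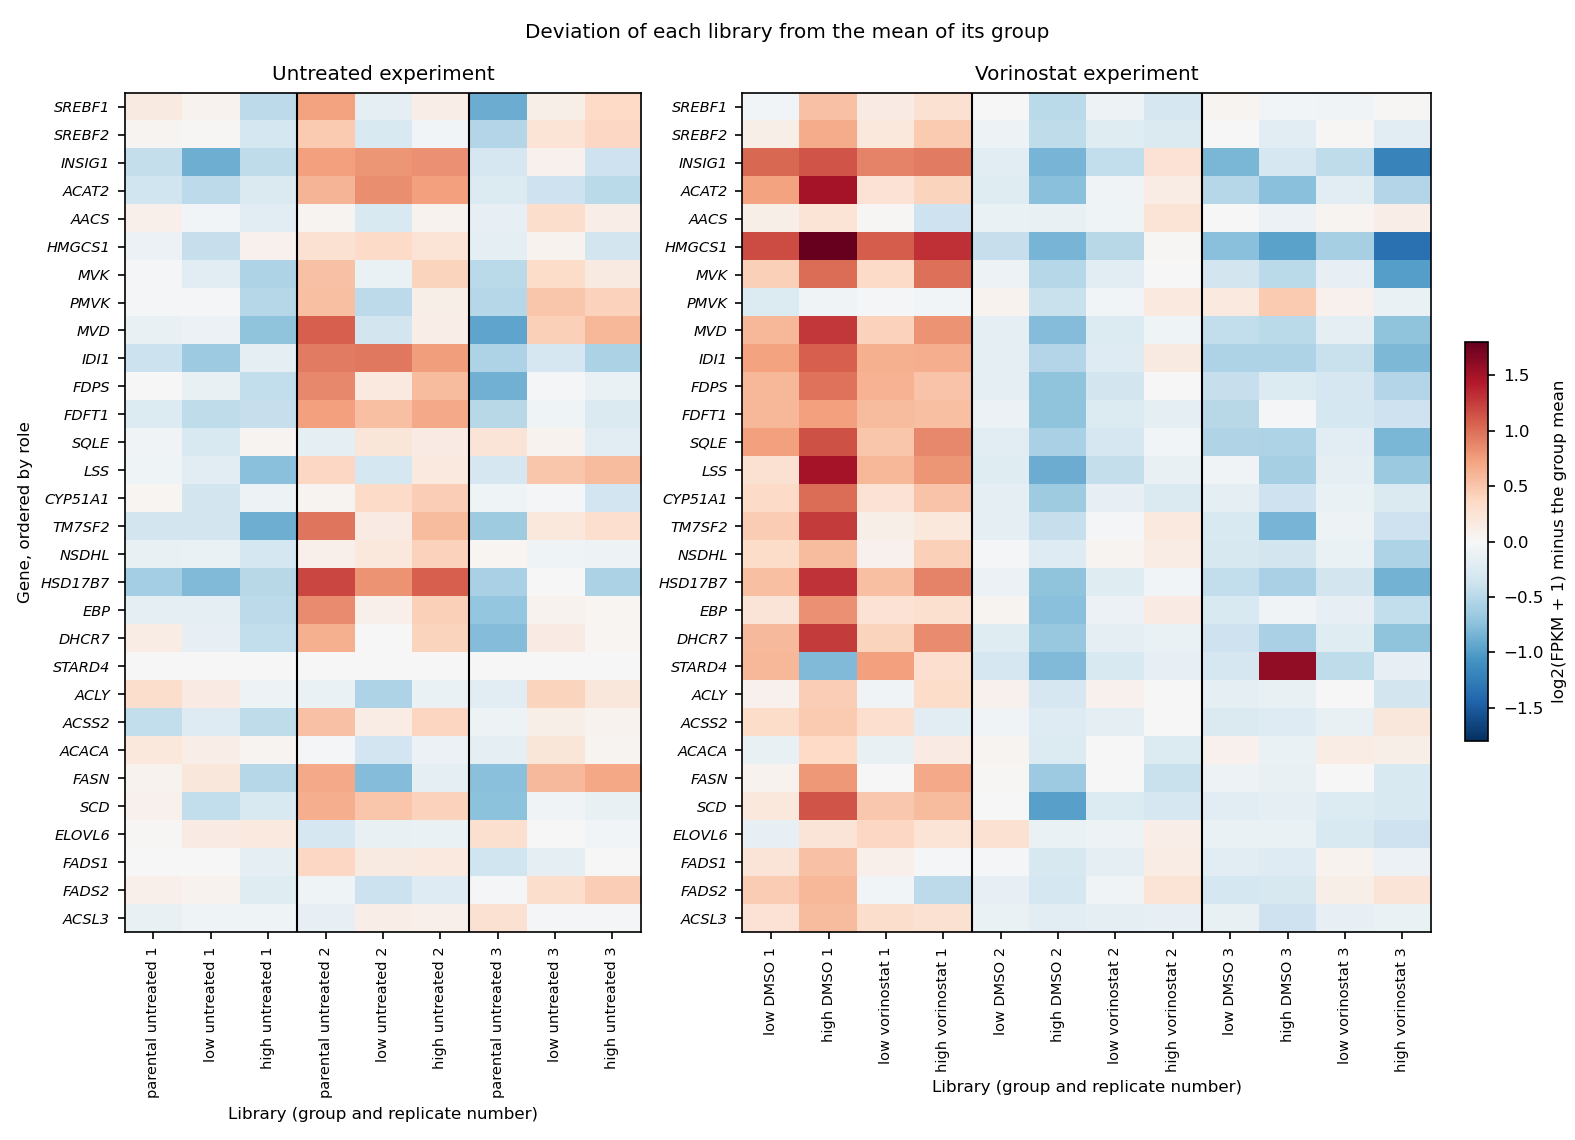
Heat map of the 30 genes (rows, ordered by role) in the 9 untreated libraries (left) and the 12 libraries of the vorinostat experiment (right), with libraries ordered by replicate number. Colour is log2(FPKM + 1) minus the mean of the library's group, red above and blue below. Replicate 1 of the vorinostat experiment is red for most sterol genes in all 4 groups, 19 genes being highest there in every group. In the untreated experiment 13 genes are highest in replicate 2 in every group.

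The comparison of EGFR-low with EGFR-high cells asks which genes differ between the sorted populations. Differences are given on the log2(FPKM + 1) scale with their standard error (SE), which understates the change of low genes. A gene was called where limma's Benjamini-Hochberg adjusted p over all genes tested was under 0.05. In untreated cells 0 of the 29 tested were called higher and 1 lower in EGFR-low cells, against 1.62% and 2.19% of all genes. With DMSO, 2 of 30 were called higher and 3 lower, against 31.1% and 20.7% of all genes, and with vorinostat 5 were called higher and 2 lower, against 36.2% and 22.8%. The median difference of the 30 genes was -0.21, -0.19 and -0.05 in these comparisons, beside -0.03, 0.12 and 0.16 over all genes tested. Of the 29 genes 24 had a difference below 0 in untreated cells, and of the 30 genes 17 with DMSO and 16 with vorinostat. These genes moved together between replicates, so counts of direction, here and below, are not independent between genes. The share of all genes on each side of 0 is not given. Scaling each library by the median of ratios brought the medians over all genes with DMSO and with vorinostat to 0.01 and 0.00, those of the 30 genes to -0.31 and -0.23, and the share of all called genes that were higher from 60.1% to 50.1% with DMSO and from 61.3% to 50.5% with vorinostat, so differences there are best read against those medians. In bulk RNA, fewer cells of a kind and less RNA per cell cannot be told apart.

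**Figure D3:**
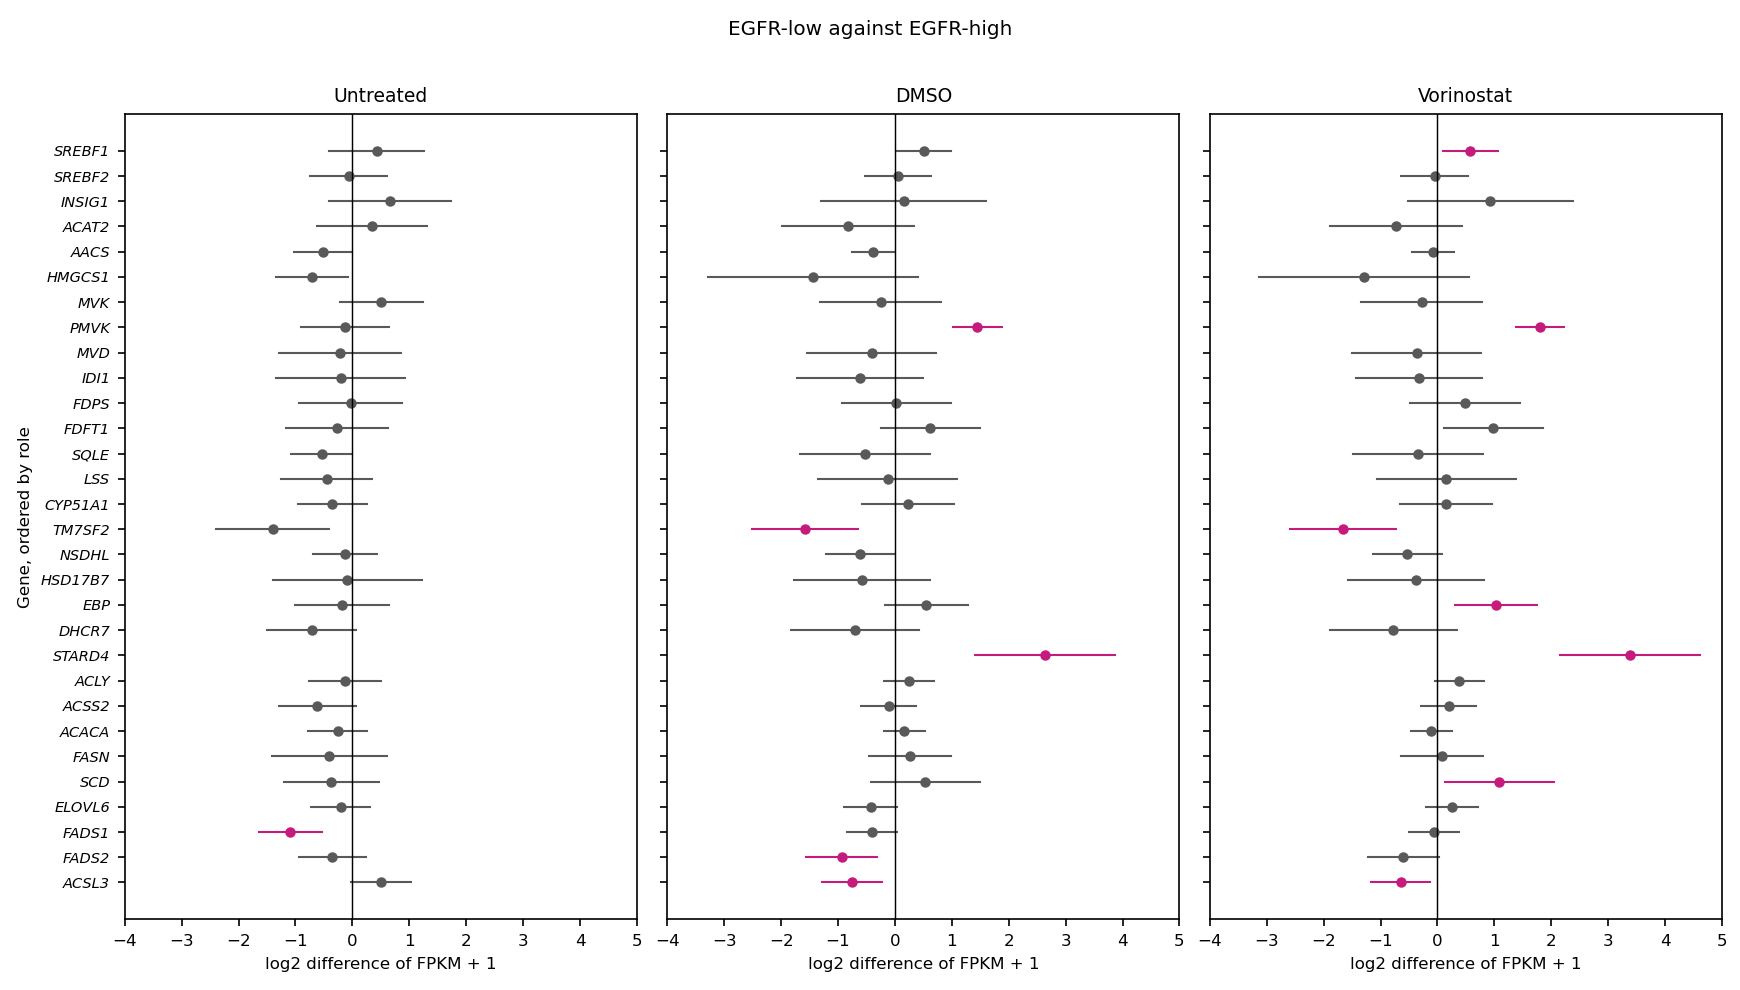
Difference of EGFR-low from EGFR-high cells in log2(FPKM + 1) for each gene (rows, by role) in untreated cells, with DMSO and with vorinostat, with 3 replicates per group. Points are limma estimates, lines 95% confidence intervals and colour marks adjusted p under 0.05. PMVK and STARD4 lie to the right and TM7SF2 to the left with DMSO and with vorinostat, and most other intervals cross 0.

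Among the regulators, SREBF2 was at 43.5, 37.8 and 40.4 FPKM in EGFR-low DMSO and 62.3, 28.2 and 33.5 in EGFR-high DMSO. With vorinostat SREBF2 was at 49.1, 36.6 and 43.4 FPKM in EGFR-low cells and at 61.6, 36.8 and 38.3 in EGFR-high cells. In untreated cells it was at 24.6, 19.8 and 28.8 in EGFR-low, 20.1, 24.4 and 33.1 in EGFR-high and 14.2, 19.5 and 9.22 in parental cells. The EGFR-low and EGFR-high ranges overlapped in all 3 comparisons, and the differences in untreated cells, with DMSO and with vorinostat were -0.07 (interval -0.74 to 0.60), 0.06 (-0.53 to 0.64) and -0.05 (-0.64 to 0.53).

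SREBF1, which also gives rise to the fatty acid regulator SREBP-1c, was at 22.0, 18.5 and 22.6 FPKM in untreated EGFR-low cells and 10.9, 16.7 and 19.9 in EGFR-high cells. With DMSO it was at 30.7, 31.85 and 33.1 in EGFR-low and 32.45, 15.6 and 21.4 in EGFR-high cells. With vorinostat it was at 39.55, 33.1 and 34.0 in EGFR-low and 28.5, 18.75 and 23.9 in EGFR-high cells, with no overlap. SREBF1 was called higher in EGFR-low cells there, by 0.58 (SE 0.22, limma adjusted p = 0.0399), while with DMSO the difference was 0.50 (limma adjusted p = 0.0748). The call with vorinostat was lost under 12 of 21 alternatives, among them median-of-ratios scaling (limma adjusted p = 0.174). It was lost without EGFR-low vorinostat replicate 1, 2 or 3 (limma adjusted p = 0.1135, 0.06315 and 0.07095) and without EGFR-high vorinostat replicate 2 or 3 (0.146 and 0.0719), and without the 2 DMSO libraries that stood apart (0.0613). SREBF1 shares exon positions with RAI1 on the other strand. INSIG1 was not called in any comparison, with differences of 0.66, 0.15 and 0.93 in untreated cells, with DMSO and with vorinostat. With the replicate number as a block, fitted over all libraries of the second experiment, INSIG1 passed with vorinostat (limma adjusted p = 0.0215).

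Of the 8 enzymes from acetyl-CoA to farnesyl diphosphate, PMVK was the 1 that was called. PMVK was at 37.9, 47.1 and 50.97 FPKM in EGFR-low DMSO and 15.1, 11.75 and 22.3 in EGFR-high DMSO. With vorinostat it was at 46.8, 46.6 and 50.9 in EGFR-low and 12.55, 14.8 and 11.9 in EGFR-high cells. The groups did not overlap in either comparison, and EGFR-low cells were higher by 1.45 with DMSO (SE 0.19, limma adjusted p = 0.000327) and 1.81 with vorinostat (SE 0.19, limma adjusted p = 4.14e-05). PMVK passed under all 21 alternatives in both, and without the 2 libraries that stood apart the difference with DMSO was 1.803. In untreated cells PMVK was at 6.23, 4.30 and 9.35 FPKM in EGFR-low and 4.60, 7.63 and 9.69 in EGFR-high cells, which overlap, and the difference was -0.13 (interval -0.91 to 0.65). Its gene lies at chr1:154924734-154936991 on the minus strand (GENCODE 29, GRCh38), and no other listed gene shares its exons.

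HMGCS1 was lower in EGFR-low cells in untreated libraries without overlap, at 98.1, 167 and 137 FPKM against 226, 256 and 171, but the difference of -0.71 did not pass (limma adjusted p = 0.287). With DMSO it was -1.43 (SE 0.84) and with vorinostat -1.29 (SE 0.84), where the spread between replicate 1 and the others set the error. With vorinostat the replicate block brought HMGCS1 past the threshold (limma adjusted p = 0.00265). It also did so with DMSO, where the replicate numbers were not shown to pair the libraries. The call of HMGCS1 with vorinostat came from the same fit, which spanned all libraries of the second experiment. Leaving out replicate 1 of every group, chosen after seeing the data, gave -1.12 with DMSO (limma adjusted p = 0.0320) and -1.18 with vorinostat (0.0237). The other 6 enzymes (ACAT2, AACS, MVK, MVD, IDI1 and FDPS) were not called, with differences between -0.82 and 0.51 over the 3 comparisons. AACS did not overlap in untreated cells and with DMSO, where the differences were -0.52 and -0.38 (limma adjusted p = 0.361 and 0.0758).

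Of the 9 enzymes from squalene to cholesterol, all 9 had differences below 0 in untreated cells and none was called. TM7SF2 had the most negative difference of the 30 genes in each comparison. In untreated cells TM7SF2 was at 1.89, 3.00 and 3.13 FPKM in EGFR-low and 4.22, 13.25 and 10.8 in EGFR-high cells. With DMSO it was at 8.09, 4.86 and 4.45 against 46.1, 13.8 and 10.05, and with vorinostat at 5.75, 5.14 and 4.89 against 21.5, 21.3 and 14.3. The groups did not overlap in any of the 3. The difference was -1.40 in untreated cells (SE 0.45, limma adjusted p = 0.145, and 0.0427 with the replicate block), -1.58 with DMSO (SE 0.43, limma adjusted p = 0.00909) and -1.66 with vorinostat (SE 0.43, limma adjusted p = 0.00564). With DMSO it was -2.23 without the 2 libraries that stood apart (limma adjusted p = 0.00175). Both calls were lost without replicate 2 of every group (limma adjusted p = 0.0917 and 0.0804). TM7SF2 lies at chr11:65111845-65116384 and shares exon positions with VPS51 on the same strand, so reads could be split between them.

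EBP, which shifts a double bond in the sterol ring, was at 48.0, 37.05 and 35.8 FPKM in EGFR-low vorinostat and 23.5, 21.3 and 13.8 in EGFR-high vorinostat. EBP was called higher there by 1.03 (SE 0.33, limma adjusted p = 0.0189), with no overlap. The call was lost without EGFR-low vorinostat replicate 1 (limma adjusted p = 0.0642), without EGFR-high vorinostat replicate 3 (0.0771) and with median-of-ratios scaling (0.0568). With DMSO EBP was at 46.3, 40.5 and 32.2 in EGFR-low and 47.5, 15.3 and 25.15 in EGFR-high cells, which overlap, and the difference was 0.55 (limma adjusted p = 0.181). SQLE was lower in untreated EGFR-low cells without overlap, at 50.1, 70.9 and 64.1 FPKM against 91.9, 98.7 and 77.8, with a difference of -0.54 that did not pass (limma adjusted p = 0.366). The other 6 enzymes (FDFT1, LSS, CYP51A1, NSDHL, HSD17B7 and DHCR7) were not called in these fits. With vorinostat 7 of the 30 genes were called without the replicate block and 12 with it, against 62.4% of all genes with it, and the 5 added were INSIG1, HMGCS1, FDFT1 (0.98, limma adjusted p = 0.00118), DHCR7 (-0.77, 0.0211) and NSDHL (-0.53, 0.0194). That block also spanned the DMSO libraries, which the replicate numbers were not shown to pair.

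STARD4 had the largest difference of the 30 genes. In EGFR-low cells it was at 15.6, 7.87 and 7.87 FPKM with DMSO and 18.3, 8.63 and 7.44 with vorinostat. In EGFR-high cells it was at 0.011, 0.00509 and 4.27 FPKM with DMSO, and with vorinostat it was at 0.372 in replicate 1 and listed at 0 in replicates 2 and 3. The groups did not overlap, and the difference was 2.64 with DMSO (SE 0.56, limma adjusted p = 0.00240) and 3.39 with vorinostat (SE 0.56, limma adjusted p = 0.000340). STARD4 passed the filter of 1 FPKM in 3 libraries only through the EGFR-low cells, where it is high. Its calls are therefore not independent of that filter. The value of 4.27 FPKM belongs to EGFR-high DMSO replicate 3. Without that library and EGFR-low DMSO replicate 1 the difference with DMSO was 3.14 (limma adjusted p = 4.69e-05), and without replicate 2 of every group the call with DMSO was lost (limma adjusted p = 0.0657). STARD4 was 1 of the 90 genes that set the EGFR-low cells of the second experiment apart, and untreated EGFR-low cells listed it at 0, 0.0088 and 0 FPKM.

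None of the 4 genes of fatty acid synthesis was called. FASN, the fatty acid synthase, was at 26.4, 12.8 and 34.5 FPKM in untreated EGFR-low cells and 21.0, 26.8 and 49.99 in EGFR-high cells. With DMSO FASN was at 37.4, 36.2 and 33.5 in EGFR-low and 51.2, 18.5 and 26.9 in EGFR-high cells, and with vorinostat at 36.3, 36.0 and 36.5 against 55.7, 25.6 and 28.0. All 3 pairs of ranges overlapped, with differences of -0.41, 0.26 and 0.08. EGFR-low libraries lay close together for FASN in the second experiment, between 33.5 and 37.4 FPKM, while EGFR-high libraries ranged from 18.5 to 55.7. The differences of ACLY, ACSS2 and ACACA, which supply acetyl-CoA and malonyl-CoA, lay between -0.62 and 0.39, and ACSS2 did not overlap in untreated cells (-0.62, limma adjusted p = 0.445).

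The fatty acid modifying genes held calls in each comparison. FADS1, the delta-5 desaturase of polyunsaturated fatty acids, was at 27.1, 30.4 and 23.8 FPKM in untreated EGFR-low cells, 51.9, 66.2 and 58.95 in EGFR-high cells and 37.2, 48.8 and 28.99 in parental cells. It was the 1 gene called in untreated cells, lower in EGFR-low cells by -1.10 (SE 0.25, limma adjusted p = 0.0357), a ratio of means of 0.459. The call was lost when any of the 6 libraries was left out, EGFR-low or EGFR-high (limma adjusted p = 0.0504 to 0.154), and with median-of-ratios scaling (0.0532). With the replicate block FADS1 stayed called and TM7SF2 was added, 2 of 29 against 8.54% of all genes. In untreated cells 7 of the 29 genes lay lower in EGFR-low cells without overlap, against 11.2% of all genes, and 1 higher, against 9.39%. With DMSO FADS1 was at 51.1, 42.9 and 37.5 in EGFR-low and 83.7, 46.7 and 48.6 in EGFR-high cells, and with vorinostat at 54.4, 45.5 and 53.0 against 51.9, 57.8 and 49.2. The ranges overlapped there, with differences of -0.40 and -0.05.

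FADS2, the delta-6 desaturase, was at 13.6, 8.63 and 7.51 FPKM in EGFR-low DMSO and 29.8, 15.4 and 15.7 in EGFR-high DMSO. It was called lower in EGFR-low cells by -0.94 (SE 0.28, limma adjusted p = 0.0159), with no overlap. The call was lost without EGFR-low DMSO replicate 2 or 3 (limma adjusted p = 0.0558 and 0.0690) or EGFR-high DMSO replicate 1 (0.0697), and without the 2 libraries that stood apart the difference was -1.31 (0.00582). With vorinostat FADS2 was at 8.40, 8.31 and 9.46 against 9.57, 16.4 and 16.2, also without overlap, and the difference of -0.60 did not pass (limma adjusted p = 0.0883). In untreated cells it was at 11.7, 8.29 and 14.2 FPKM in EGFR-low and 12.4, 12.2 and 20.1 in EGFR-high cells, which overlap. FADS1 and FADS2 lie beside each other on chromosome 11 and share exon positions on opposite strands, and whether the counting used strand is not given in the sources used here, so the split of reads between them is uncertain. FADS2 also shares exon positions with FEN1 on the same strand, so reads could be split between those genes as well.

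ACSL3 went in opposite directions in the 2 experiments. In untreated cells it was at 259, 298 and 268 FPKM in EGFR-low and 183, 205 and 190.5 in EGFR-high cells, higher in EGFR-low cells without overlap by 0.51, which did not pass (SE 0.24, limma adjusted p = 0.391). With DMSO it was at 113, 86.25 and 85.8 in EGFR-low and 237, 139 and 123 in EGFR-high cells, and with vorinostat at 119, 84.6 and 85.6 against 181, 134.5 and 137. ACSL3 was called lower in EGFR-low cells by -0.75 with DMSO (SE 0.24, limma adjusted p = 0.0197) and -0.65 with vorinostat (SE 0.24, limma adjusted p = 0.0341). With DMSO the call was lost without EGFR-low DMSO replicate 2 or 3 (limma adjusted p = 0.0671 and 0.0679) or EGFR-high DMSO replicate 1 (0.07745). With vorinostat it was lost without EGFR-low vorinostat replicate 2 or 3 (0.107 and 0.103) or EGFR-high vorinostat replicate 1 (0.107). Without the 2 libraries that stood apart the difference with DMSO was -1.07 (limma adjusted p = 0.00737).

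SCD was at 521, 311 and 313 FPKM in EGFR-low vorinostat and 259, 141 and 143.5 in EGFR-high vorinostat, with no overlap. It was called higher in EGFR-low cells by 1.09 (SE 0.44, limma adjusted p = 0.0489), the call nearest the threshold. The call was lost under 13 of 21 alternatives, among them median-of-ratios scaling (limma adjusted p = 0.1135). It was lost without EGFR-low vorinostat replicate 1, 2 or 3 (limma adjusted p = 0.160, 0.0649 and 0.0663), without EGFR-high vorinostat replicate 2 or 3 (0.135 and 0.1315), and without the 2 DMSO libraries that stood apart (0.0694). With DMSO SCD was at 379.7, 332 and 289.8 FPKM in EGFR-low and 502, 116 and 205 in EGFR-high cells, and in untreated cells at 65.3, 127 and 85.8 against 95.6, 154 and 105, with overlap in both. ELOVL6, the elongase of palmitate, was not called, with differences of -0.21, -0.43 and 0.26, and did not overlap with DMSO. With DMSO 5 of the 30 genes lay lower in EGFR-low cells without overlap and 2 higher, against 28.4% and 40.9% of all genes.

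**Figure D4:**
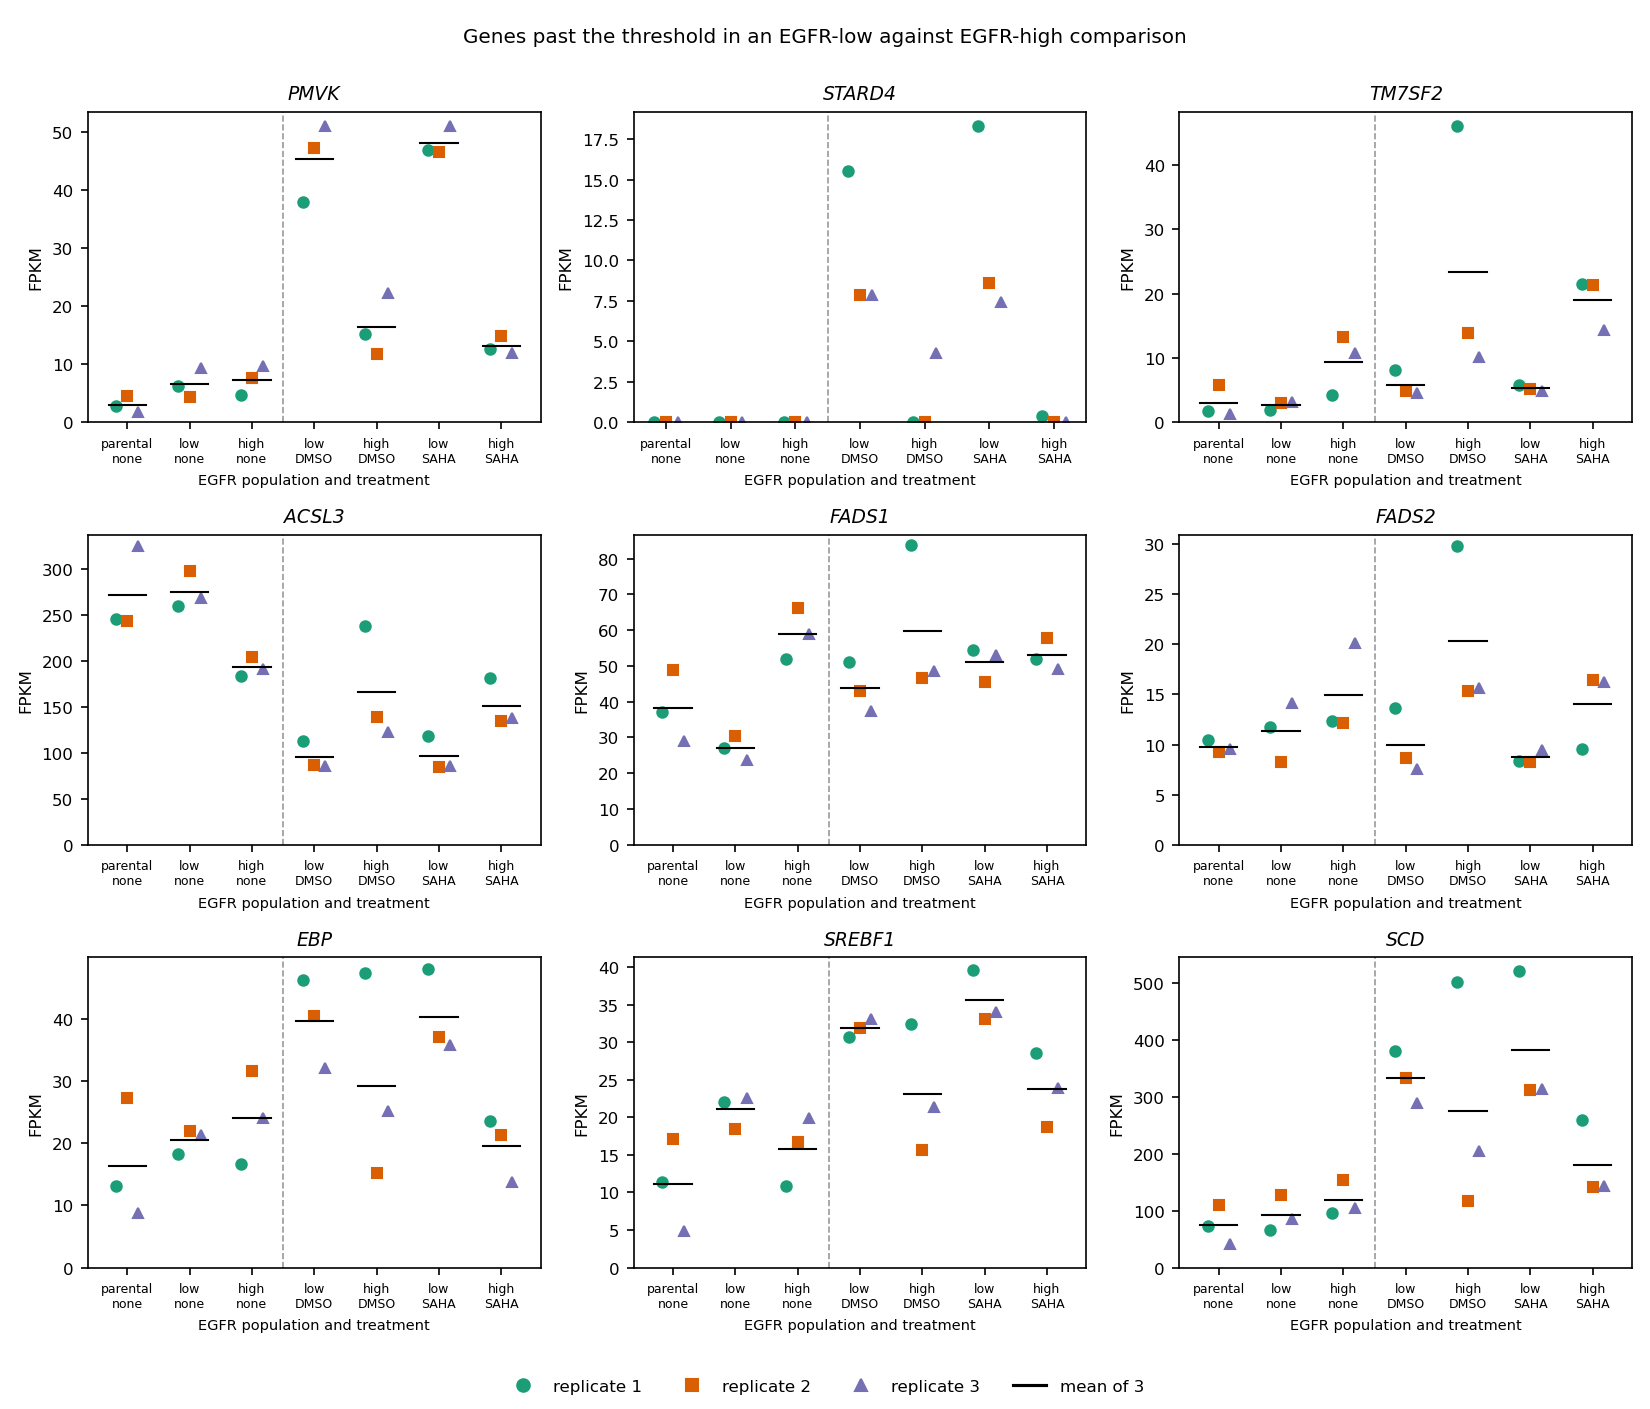
FPKM of the 9 genes called in at least 1 comparison of EGFR-low with EGFR-high cells, in each of the 21 libraries by EGFR population and treatment, with a marker per replicate number and, except for STARD4, a bar at the mean of 3 replicates. The dashed line separates the experiments. PMVK is at 37.9 to 50.97 FPKM in EGFR-low cells right of the line and at 11.75 to 22.3 in EGFR-high cells, and ACSL3 is higher in EGFR-low cells left of the line and lower right of it.

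Because replicate 1 set much of the spread, the second experiment was also fitted without replicate 1 of every group, an alternative chosen after seeing the data. With DMSO 15 of 30 genes were then called, 10 higher and 5 lower in EGFR-low cells, among 58.1% of all genes. With vorinostat 13 were called, 7 higher and 6 lower, among 63.8% of all genes. FDFT1, SCD, SREBF1, ACLY and EBP were among those higher in both and HMGCS1 among those lower in both. Leaving out both DMSO libraries that stood apart gave 8 genes with DMSO, PMVK and STARD4 higher and ACAT2, ACSL3, FADS1, FADS2, NSDHL and TM7SF2 lower, among 49.5% of all genes, and 5 with vorinostat, among 56.9%. The shares of the 30 genes stayed below those of all genes in each of these fits.

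Against parental cells no gene was called. In EGFR-low cells 0 of 29 passed with limma, against 1.6% of all genes, and 5 of the 29 (17.2%) and 1668 of all 11305 genes (14.75%) had an unadjusted p under 0.05. In EGFR-high cells 0 of 29 passed with limma, against 0.0708% of all genes, and 9 of the 29 (31.0%) and 1093 of all genes (9.67%) had an unadjusted p under 0.05. These comparisons share the parental libraries with each other and the sorted libraries with the one above. In EGFR-high cells 26 of 29 differences were above 0, with a median of 0.53 beside 0.07 over all genes, and all 8 early enzymes, all 9 late enzymes and all 4 fatty acid synthesis genes were among them. As above, these directions are not independent between genes. SREBF2 was at 14.2, 19.5 and 9.22 FPKM in parental cells, below all 3 EGFR-low and all 3 EGFR-high libraries, by 0.77 (SE 0.30, limma adjusted p = 0.273) and 0.84 (SE 0.30, limma adjusted p = 0.507). FASN was at 13.35, 21.0 and 7.11 FPKM in parental cells, lower than in EGFR-high cells without overlap, by 1.20 (SE 0.46, limma adjusted p = 0.507). SREBF1 was at 11.3, 17.15 and 4.91 FPKM in parental cells, below all EGFR-low libraries, by 1.00 (limma adjusted p = 0.257). The parental replicates were spread widely, replicate 3 being the lowest for these 3 genes.

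The comparison of vorinostat with DMSO asks whether the drug changed these genes within a population. None was called. In EGFR-low cells limma called 0 of 30 genes and 0 of all 12236 (0.0%), with 0 of the 30 and 115 of all genes at an unadjusted p under 0.05. The differences lay between -0.23 (CYP51A1) and 0.35 (ELOVL6), with a median of 0.01. In EGFR-high cells limma called 0 of 30 and 0 of all genes (0.0%), with 1 of the 30 and 409 of all genes at an unadjusted p under 0.05. The differences lay between -0.66 (STARD4) and 0.21 (FASN), with a median of -0.19 beside -0.06 over all genes, and 25 of 30 were below 0. The 1 gene was ACSS2, the acetyl-CoA synthetase of cytosol and nucleus, with a mean of 35.5 FPKM with vorinostat and 51.7 with DMSO, without overlap, and a difference of -0.50 (limma adjusted p = 0.940).

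How large a change could have been missed differed between genes. The 95% interval of the vorinostat effect in EGFR-low cells was -0.51 to 0.22 for ACACA, the acetyl-CoA carboxylase, -0.33 to 0.52 for PMVK and -0.33 to 0.63 for SREBF1. For INSIG1 it was -1.18 to 1.71 and for HMGCS1 -1.85 to 1.84. With the replicate number as a block, fitted over both populations, these intervals narrowed to -0.40 to 0.93 for INSIG1 and -0.63 to 0.61 for HMGCS1. Without the 2 DMSO libraries that stood apart the effects in EGFR-low cells were 0.78 for INSIG1 and 0.58 for HMGCS1, with 25 of the 30 genes above 0 and a median of 0.16, and in EGFR-high cells -0.66 and -0.63, with 25 below 0 and a median of -0.37. None of the 30 was called by limma there, and ACSS2 in EGFR-high cells was again the 1 with an unadjusted p under 0.05. The effect of vorinostat did not differ detectably between the populations, as limma called 0 of 30 genes and 0 of all genes (0.0%) for the difference, with 1 of the 30, ELOVL6 (0.69, limma adjusted p = 0.999), and 215 of all genes at an unadjusted p under 0.05.

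Other genes of the pathway were read from lists written beside the 30. Their counts of calls stand beside the shares of all genes given above, which were 1.62% higher and 2.19% lower in untreated EGFR-low cells, 31.1% and 20.7% with DMSO and 36.2% and 22.8% with vorinostat. Of 16 other genes of sterol synthesis and uptake, 14 were tested in each experiment. None was called in untreated cells, while 4 were higher and 1 lower in EGFR-low cells with DMSO and with vorinostat. NPC1, which exports cholesterol from lysosomes, was higher by 2.01 with DMSO (limma adjusted p = 0.000573). Of 7 SREBP processing genes, 1 was higher and 1 lower with DMSO and 1 higher and 2 lower with vorinostat. These were MBTPS2, the site-2 protease (0.80 and 0.98), and INSIG2 (-1.63 and -1.87), with FBXW7 (-0.57) lower with vorinostat.

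Of 19 other lipogenic genes, 17 were tested in the second experiment. With DMSO 5 were higher and 7 lower, against 31.1% and 20.7% of all genes. With vorinostat 6 were higher and 8 lower, against 36.2% and 22.8%. MID1IP1, a binding partner of acetyl-CoA carboxylase, was higher by 4.64 with DMSO (limma adjusted p = 0.00140) and ACSL5 lower by -2.24 (limma adjusted p = 0.000581). In untreated cells 15 of them were tested and 2 were lower, SCD5 (-1.27, limma adjusted p = 0.0128) and ACSL1 (-1.10, limma adjusted p = 0.0233). Of 8 tested LXR and sterol efflux genes, 5 were lower with DMSO and 6 with vorinostat, against 20.7% and 22.8% of all genes. None was higher in either, against 31.1% and 36.2% of all genes. The sterol exporter ABCG1 was lower by -1.65 with DMSO and -2.72 with vorinostat but higher by 0.94 in untreated cells (limma adjusted p = 0.0429). Of 12 fatty acid oxidation genes, 5 were higher and 1 lower with DMSO and with vorinostat. The shares of all genes were 31.1% higher and 20.7% lower with DMSO, and 36.2% and 22.8% with vorinostat. CPT1A, which admits fatty acids to mitochondria, was among those higher, by 0.76 and 0.71. Without the 2 libraries that stood apart, NPC1, MBTPS2, INSIG2, MID1IP1, ACSL5, ABCG1 and CPT1A stayed called with DMSO, MID1IP1 at 6.105. Neither vorinostat comparison called a gene of any of these lists, or any other gene. The replicate pattern was present among the other sterol genes, as 7 of the 14 were highest in replicate 1 in all 4 groups of the second experiment, against 3.46% of all genes, and none of the 12 fatty acid oxidation genes.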

How the data were processed

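Expression was measured by RNA sequencing of 21 bulk libraries. The authors deposited gene tables whose naming says counts, but the values are not whole numbers and sum to 467897 to 592942 per library, so these deposited values were read as FPKM, the unit that Cufflinks reports. The submitters' processing notes name STAR 2.5.1b, Cufflinks 2.2.1, DESeq2 1.10.1 and hg19, without roles. Depth is unknown, so no counting error is given, and exact zeros can be failed estimates. All columns mapped to a sample.

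A gene entered the tests of an experiment if 3 or more of its libraries reached 1 FPKM, which left 11305 genes untreated and 12236 in the vorinostat experiment. Each experiment had its own fit of log2(FPKM + 1) by limma 3.58.1 in R 4.3.3 (group means, mean-variance trend), in 8 comparisons, with Benjamini-Hochberg adjustment over all genes tested and a threshold of 0.05. The experiments were not tested against each other, and comparisons within one share libraries. An exact two-sided permutation test of 3 against 3 cannot go below 0.1. The replicate numbers were taken to pair the libraries of EGFR-low and EGFR-high cells when untreated (correlations of deviations 0.343, 0.73 and 0.689) and with vorinostat (0.353, 0.351 and 0.163), and of vorinostat and DMSO in EGFR-low cells (0.267, 0.302 and 0.329), each above 0.1. The labels number the replicates without saying what a number shares. The block was fitted over all libraries of an experiment together, those of groups not shown to pair included. Not all correlations were above 0.1 for EGFR-low and EGFR-high cells with DMSO (0.251, -0.207 and 0.285). The same held for vorinostat and DMSO in EGFR-high cells (0.0597, 0.189 and -0.143) and for parental cells with either sorted population. On simulated data, 25.3% and 74.7% of genes changed by 1 and 2 log2 units were found in the untreated comparison of EGFR-low with EGFR-high (11249 genes) and 66.7% and 97% in that with DMSO (11983 genes). Each simulated gene varied independently around 1 mean, and 99 genes were changed by each amount. In the data, genes moved together between replicates and 6334 were called with DMSO, so these shares need not hold for the real comparisons.

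All 30 genes are named. Values per library are given for SREBF1, SREBF2, INSIG1, HMGCS1, SQLE, FASN, SCD and each gene called, and up to 3 called genes of largest difference per other list. The genes and lists were chosen with earlier results of these data known. Gene positions are from GENCODE 29 (GRCh38) and were not used with the tables' hg19. Of the 30 genes 7 share exon positions with another listed gene. For ACAT2, MVK and LSS the sharing is with the opposite strand. Alternatives were pseudocounts 0.1 and 5, other filters, median-of-ratios and quantile scaling, no trend, a correction for GC content and length (11182 and 12108 genes with both, all 30 among them), the replicate block and leaving out libraries. Some genes of the other lists are not reported here by name.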

Additional observations from a re-analysis of the deposited data

Results flagged for a closer look

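ACSL3, an activating enzyme for long-chain fatty acids, was the 1 of the 30 genes whose difference between EGFR-low and EGFR-high cells turned over between the experiments with every library on one side. It was 0.51 higher on the log2(FPKM + 1) scale in untreated EGFR-low cells, where all 3 EGFR-low libraries lay above all 3 EGFR-high libraries, and -0.75 with DMSO and -0.65 with vorinostat, where all 3 lay below. The difference between the experiments was not tested, since their tables were made and fitted separately.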

How the results depend on the processing

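No gene called in the main results changed direction under any alternative run, but the split of calls moved, as the 2 higher and 3 lower genes with DMSO became 10 and 5, 1 and 0, or 2 and 1 without replicate 1, 2 or 3 of every group. Untreated EGFR-low against EGFR-high cells gave 1 called gene, then 0 with median-of-ratios scaling, 2 with the replicate block (8.54% of all genes), 10 with the block and removal of the GC and length trend (ACSL3, INSIG1, MVK and SREBF1 higher, and AACS, ACSS2, DHCR7, FADS1, HMGCS1 and TM7SF2 lower, beside 22.4% of all genes), 0 with any 1 library left out and 0 to 1 with a replicate number left out of every group. EGFR-low against parental cells gave 0, then 1 with the block (4.64% of all genes), 1 with the trend removed, 8 with both (20.8%) and 0 to 3 with libraries or a replicate number left out, and EGFR-high against parental cells 0, then 1 with both (0.689%). With DMSO the count was 5, then 11 with the block (55.5% of all genes), 13 with the block and the trend removed (56.7%), 3 to 7 with 1 library left out, 1 to 15 with a replicate number left out and 8 without EGFR-low DMSO replicate 1 and EGFR-high DMSO replicate 3. The block added FDFT1 and SREBF1 higher and DHCR7, HMGCS1, IDI1 and NSDHL lower there, though the replicate numbers were not shown to pair the libraries with DMSO. The same block fit gave the count with vorinostat. With vorinostat it was 7, then 4 without a filter on low values, 12 with the block (62.4% of all genes), 13 with both (63.2%), 4 to 9 with 1 library left out and 3 to 13 with a replicate number left out. Leaving out a replicate number in every group, or the pair of DMSO libraries, was chosen after seeing the data. The 0 calls for vorinostat against DMSO and for its difference held under every alternative, the block included. The cause of these shifts was not tested. A group size of 3 and an unknown depth limit all of these counts.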
